A study of Mus musculus with 2 samples.

Results

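The regions around 6 genes of cartilage extracellular matrix, Col2a1, Acan, Col11a1, Col9a1, Hapln1 and Comp, held 106 of the 90984 peaks in a list of Smad4-enriched regions. Each locus was a fixed window of mm9, and a peak belonged to a locus when its midpoint lay in the window. The windows were chr15:97500001-98100000 for Col2a1 (14 peaks), chr7:85900001-86500000 for Acan (19 peaks), chr3:113400001-114200000 for Col11a1 (26 peaks), chr1:23900001-24600000 for Col9a1 (16 peaks), chr13:89300001-90100000 for Hapln1 (24 peaks) and chr8:72600001-73200000 for Comp (7 peaks). The windows were set by position, not by any value of the peaks, and 4 peaks lay within 5 kb inside their edges and 2 within 5 kb outside. The peaks came from 1 Smad4 ChIP library. The series also has 1 input DNA library, made from sheared chromatin that saw no antibody, and the labels do not state how the peak caller used it. Both libraries were from forelimbs of C57BL/6 mouse embryos, and each is labelled with embryonic days 12.5 and 13.5 together. The labels name no mutant allele and no treatment of the embryos for either library. With 1 library per group there is no replicate check, so no test was made: the intervals below cover counting error only, peaks being loci of 1 library and not replicates. The depth of both libraries is unknown.

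Smad4 is the partner that receptor-activated Smad proteins share, and it carries BMP and TGF-β signals to the genome. Growing limb cartilage is laid down by chondrocytes that secrete a matrix of collagen fibrils and proteoglycan before some of them enlarge and become hypertrophic. Col2a1 encodes the chain of type II collagen, the main fibril of cartilage. Col11a1 encodes a chain of type XI collagen, which lies within those fibrils, and Col9a1 a chain of type IX collagen, which lies on their surface. Acan encodes aggrecan, the large proteoglycan that holds water in cartilage, and Hapln1 the link protein that fastens aggrecan to hyaluronan. Comp encodes cartilage oligomeric matrix protein, which binds collagens. By its title the series concerns the hypertrophy of chondrocytes, and the question put to the library was which genes Smad4 acts on directly in that step.

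The median fold lay above that of the rest of the chromosome at some of the 6 loci and slightly below it at the others. Only at Comp and Hapln1 did the interval of the median, given further below, exclude the median of the rest. At Comp, Col2a1 and Acan the peaks had a higher deposited fold enrichment than the rest of the chromosome, with medians of 2.98, 1.97 and 1.82, against 1.5 on the rest of chromosome 8, 1.49 on the rest of chromosome 15 and 1.52 on the rest of chromosome 7. At Col11a1, Hapln1 and Col9a1 the medians were 1.42, 1.38 and 1.36, against 1.45 on the rest of chromosome 3, 1.46 on the rest of chromosome 13 and 1.47 on the rest of chromosome 1. The fold is the authors' value for each peak, and it is read here only as a rank within the list. Across the whole list 14.3% of peaks had a fold of at least 2. Over all 6 loci 23 of 106 peaks did (21.7%, exact binomial 95% interval 14.3 to 30.8%), against 13.5% of the 29179 peaks on the rest of the same 6 chromosomes. Of those 23 peaks, 19 lay at Comp, Col2a1 or Acan, which held 7, 14 and 19 of the 106 peaks. These loci are grouped by their median fold, so the count restates that grouping.

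**Figure D1:**
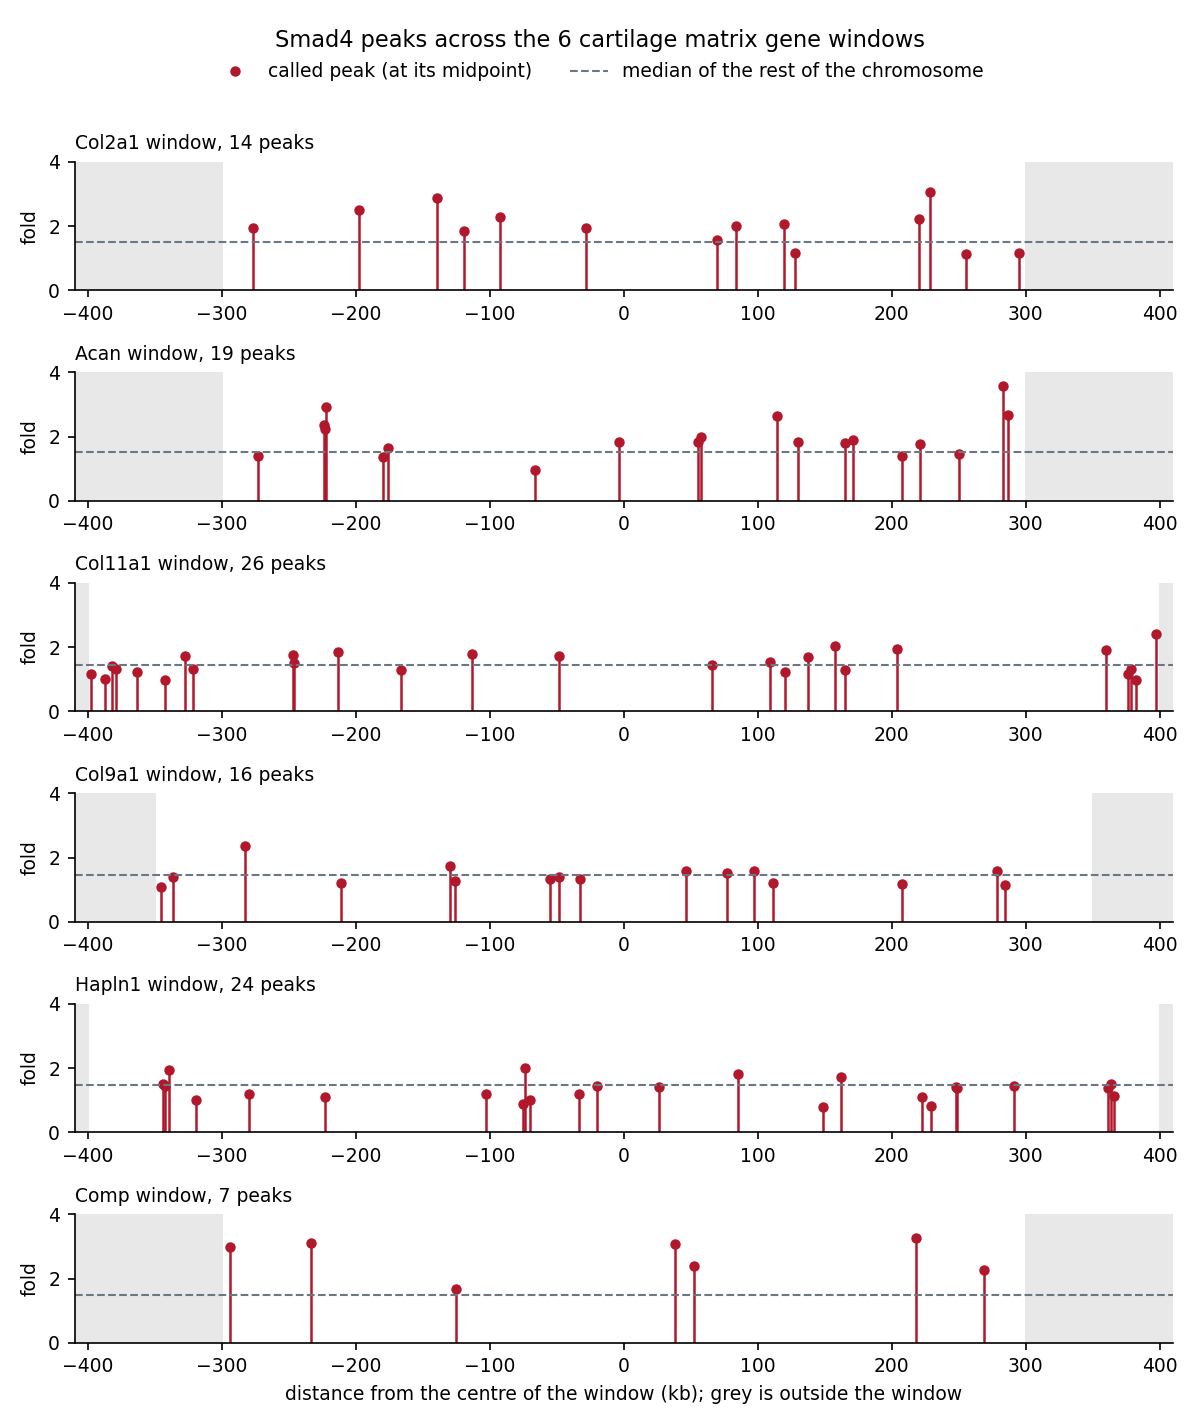
Each of the 106 peaks is drawn at its distance in kb from the centre of its window, with the deposited fold as its height and 1 row per locus; the dashed line is the median fold of the rest of the chromosome. The 7 Comp peaks all stand above that line, while the Col9a1 and Hapln1 peaks crowd around and below it.

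Among the fibril collagens, the Col2a1 window held 14 peaks, or 23.3 per Mb (exact Poisson 95% interval 12.8 to 39.1), against 32.6 per Mb on the rest of chromosome 15. The interval includes the value of the rest of the chromosome. Their folds ran from 1.12 to 3.06, and 6 of 14 were at least 2 (42.9%, 17.7 to 71.1%), against 13.7% on the rest of the chromosome. The leading peak was chr15:98027897-98028855, with a fold of 3.06, 33 tags (exact Poisson 95% interval 22.7 to 46.3), a p score of 324.26 and an FDR of 0.17%. The p score restates the p-value of the peak caller as −10 times its log10, and tags are the sequenced reads that the caller counted in the peak. This peak also had the most tags and the greatest length of the window, 959 bp, and 22 of the 3273 peaks on chromosome 15 had a higher fold. The next folds were 2.87 at chr15:97660171-97660737 with 16 tags and 2.50 at chr15:97602301-97602896 with 15 tags. The tag intervals of both overlap those of all other peaks of the window, the leading one included.

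The middle of the Col2a1 window was empty of peaks. Its longest gap, 97366 bp, lay across the centre, from chr15:97771984 to chr15:97869349. The gap across the centre was longer at Comp, 162690 bp, and at Col11a1, 113753 bp. It was shorter at Col9a1, 78303 bp, at Acan, 57541 bp, and at Hapln1, 46053 bp. The nearest peak to the centre of the Col2a1 window, chr15:97771281-97771983, held 18 tags and had a fold of 1.94. Where the gene itself lies in the window was not determined, because mm9 annotation was not used here, and this holds for all 6 loci. The median gap between neighbouring peaks was 34717 bp in the Col2a1 window, against 19125 bp on the rest of chromosome 15.

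The Col11a1 window, the locus with the most peaks, held 26, or 32.5 per Mb (21.2 to 47.6), against 36.4 per Mb on the rest of chromosome 3. At or above 2-fold lay 2 of 26 peaks (7.69%, 0.946 to 25.1%), against 10.7%, so neither number nor strength stood outside counting error in this window. With the window widened to 1600 kb the density turned to 1.34 times that of the rest of the chromosome (1.06 to 1.68), in place of 0.893 times (0.583 to 1.31). Of the 26 peaks, 2 had their midpoint within 100 kb of the centre, and 9 lay in the middle 400 kb. There the density was 0.618 times that of the rest of the chromosome (0.282 to 1.17), and the interval includes 1. The leading fold was 2.42 at chr3:114196973-114198039, a peak of 34 tags (23.5 to 47.5) with the highest p score of the window, 307.09. The next folds were 2.02 at chr3:113957672-113958076 and 1.93 at chr3:114003476-114004045, with 15 and 17 tags. The peak with the most tags of all 106 also lay here. It was chr3:114177726-114179187, with 56 tags (42.3 to 72.7) over 1462 bp and a fold of only 1.33. Peaks of 1 kb or longer numbered 4 of 26 (15.4%), against 3.19% on the rest of the chromosome, and the other 5 loci had none. Nearest to the centre was chr3:113750938-113751535, with 15 tags and a fold of 1.72.

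The Col9a1 window held 16 peaks, or 22.9 per Mb (13.1 to 37.1), against 33.8 per Mb on the rest of chromosome 1. They were the weakest by median fold, at 1.36, and by median p score, at 81.3, against 105.6 on the rest of the chromosome. A single peak passed a fold of 2 (6.25%, 0.158 to 30.2%), against 12.4%. It was chr1:23966704-23967302, with a fold of 2.37, 22 tags (13.8 to 33.3) and a p score of 203.19. The others had folds of 1.09 to 1.73. The second was 1.73 at chr1:24119594-24120158, with 17 tags. A fold of 1.59 was shared by chr1:24528293-24528915, with 20 tags, and by the longest peak of the window, chr1:24296001-24296631, of 631 bp. The peak nearest to the centre, chr1:24217104-24217697, held 15 tags and had a fold of 1.34. Of the 16 peaks, 9 had the list's minimum of 15 tags (56.3%), against 34.7% on the rest of chromosome 1. An FDR of at most 1% was given to 9 of 16 peaks (56.3%, 29.9 to 80.2%), against 77.5% on the rest of the chromosome and 77.6% in the whole list.

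Of the genes of the proteoglycan aggregate, Acan had 19 peaks in its window, or 31.7 per Mb (19.1 to 49.5), against 35.5 per Mb on the rest of chromosome 7. At or above 2-fold lay 7 of 19 (36.8%, 16.3 to 61.6%), against 17.6%, a value that the interval includes. The strongest of all 106 peaks by fold and by p score lay near the edge of this window, at chr7:86482550-86483489. It had a fold of 3.56, 34 tags (23.5 to 47.5), a p score of 376.02 and an FDR of 0.16%, and 13 of the 5309 peaks on chromosome 7 had a higher fold. A second peak lay beside it at chr7:86486118-86487104, with a fold of 2.66, 31 tags (21.1 to 44.0) and the greatest length of the window, 987 bp. At the opposite end, a run of 3 peaks within 2216 bp, chr7:85975899-85978114, had folds of 2.36, 2.24 and 2.93 and 53 tags in all. These 2 places held 5 of the 7 Acan peaks of at least 2-fold. As found, the share of at least 2-fold was 19.2 percentage points above the rest (-1.33 to 44.0). With peaks less than 1 kb apart merged, it was 10.3 points above (-8.78 to 36.9). The peak nearest to the centre, chr7:86196328-86197095, held 25 tags (16.2 to 36.9) and had a fold of 1.83, with a p score of 242.46. It was the peak closest to the centre of any of the 6 windows, its midpoint lying 3.29 kb before that point.

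The Hapln1 window held 24 peaks, or 30 per Mb (19.2 to 44.6), against 37.1 per Mb on the rest of chromosome 13. Most had a low fold. Their folds ran from 0.80 to 2.01, 1 of 24 reached 2 (4.17%, 0.105 to 21.1%), against 13.3% on the rest of the chromosome, and 18 of 24 were under 1.5 (75%), against 53.3%. A fold below 1 was given to 3 of 24 peaks (12.5%), against 5.39%. The leading peak, chr13:89626289-89626717, had a fold of 2.01, 16 tags (9.15 to 26.0) and the highest p score of the window, 147.81. The next folds were 1.95 at chr13:89360155-89360604 and 1.80 at chr13:89784996-89785496. No peak held more than 22 tags, a number shared by chr13:89356684-89357464 with a fold of 1.45 and chr13:89861568-89862349 with a fold of 1.71. The second of these was also the longest, at 782 bp. Nearest to the centre was chr13:89679659-89680203, with 17 tags and a fold of 1.45.

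Hapln1 peaks also lay in runs, taken here as at least 3 peaks less than 5 kb apart. Such runs held 9 of its 24 peaks (37.5%, 18.8 to 59.4%), against 18.9% on the rest of chromosome 13 and 19.6% in the whole list. The interval includes both of those values. It treats each peak as separate, though a run brings at least 3 together, so it is too narrow. The Hapln1 runs were chr13:89355378-89360604, chr13:89624676-89630049 and chr13:90061377-90066099, with 46 to 53 tags each. Col11a1 had 2 runs, at chr3:113412734-113421224 and chr3:114175894-114182494, with folds of 0.96 to 1.41. Acan had the 1 described above, and Col2a1, Col9a1 and Comp had none. Only the Acan run had all of its peaks at 2-fold or more.

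The Comp window was the sparsest and, by median fold, the strongest. It held 7 peaks, or 11.7 per Mb (4.69 to 24.0), against 32.0 per Mb on the rest of chromosome 8, where a stretch of this width would hold 19.2 peaks. The upper bound of the interval lies below the density of the rest of the chromosome. In order of position the folds were 2.98, 3.11, 1.67, 3.07, 2.39, 3.27 and 2.27. At or above 2-fold lay 6 of 7 (85.7%, 42.1 to 99.6%), against 13.7%, and at or above 3-fold 3 of 7 (42.9%, 9.90 to 81.6%), against 0.927% on the rest of chromosome 8 and 0.835% in the whole list. The leading peaks were chr8:73117442-73118000 with a fold of 3.27, chr8:72666002-72666561 with a fold of 3.11 and chr8:72937975-72938435 with a fold of 3.07. The last of these is also nearest to the centre of the window. The highest p score of the window, 238.69, belonged to the first of them. The peak with the most tags and the greatest length was chr8:73168552-73169233, with 18 tags over 682 bp.

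The strength of the Comp peaks did not come with many tags. The 7 peaks held 15 to 18 tags, and 5 of them held exactly 15, the minimum of the list. That is 71.4% of the window, against 34.7% on the rest of chromosome 8. At 15 tags the median fold was 2.98 at Comp, against 1.41 for peaks of 15 tags on the rest of chromosome 8. An exact Poisson interval for 15 tags runs from 8.40 to 24.7, so the peaks do not differ from one another in tags beyond counting error. Their median p score was 191.8, against 108.0 on the rest of the chromosome. All 7 had an FDR of at most 1%, the highest being 0.14%.

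**Figure D2:**
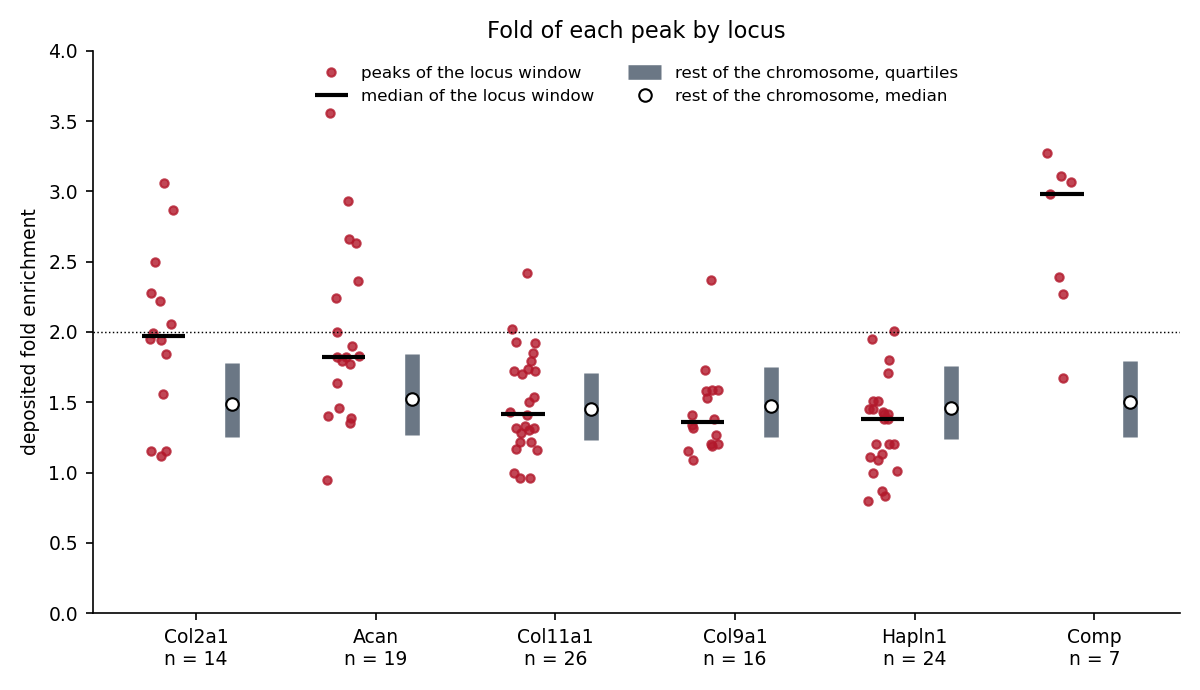
Each point is the deposited fold of 1 peak, by locus, with the black bar at the median of the window; the grey bar and open circle beside it give the quartiles and median of the rest of the chromosome, and the dotted line marks a fold of 2. The Comp median of 2.98 stands above the upper quartile of chromosome 8, 1.79, while the Col9a1, Hapln1 and Col11a1 medians lie between the quartiles of their chromosomes.

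A higher share of strong peaks can come from more strong peaks or from fewer weak ones, and both numbers are given here per Mb. Peaks under 1.5-fold were absent from the Comp window, which allows up to 6.15 per Mb by the exact Poisson interval, against 15.9 per Mb on the rest of chromosome 8. At Col2a1 they had a density of 5 per Mb (1.03 to 14.6), against 16.5 per Mb. At Acan it was 8.33 per Mb (2.71 to 19.4), against 16.8 per Mb, so the interval includes the rest of the chromosome. Peaks of at least 2-fold had a density of 10.0 per Mb at Comp (3.67 to 21.8), against 4.39 per Mb, 10.0 per Mb at Col2a1 (3.67 to 21.8), against 4.46 per Mb, and 11.7 per Mb at Acan (4.69 to 24.0), against 6.26 per Mb. These 3 intervals include the densities of the rest of each chromosome. The shortage of weak peaks at Comp and Col2a1 was therefore beyond counting error, and the excess of peaks of at least 2-fold was not. That reading holds for the limit of 2-fold only. No density interval was computed at a limit of 3-fold. At that limit the Comp window held 3 peaks in 0.6 Mb, and the rest of chromosome 8 held 38 in 128.1 Mb. The Comp share at 3-fold, 42.9% (9.90 to 81.6%), stood clear of the 0.927% on the rest of chromosome 8. The Col2a1 share, 7.14% (0.181 to 33.9%), did not stand clear of the 0.828% on the rest of chromosome 15.

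At the other loci peaks of at least 2-fold were fewer than on the rest of the chromosome. They had densities of 2.50 per Mb at Col11a1, 1.43 per Mb at Col9a1 and 1.25 per Mb at Hapln1, against 3.90, 4.19 and 4.92 per Mb on the rest of chromosomes 3, 1 and 13. Those differences were within the counting intervals. Peaks under 1.5-fold had 17.5 per Mb at Col11a1, 14.3 per Mb at Col9a1 and 22.5 per Mb at Hapln1, against 20.1, 17.5 and 19.8 per Mb on the rest of those chromosomes.

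**Figure D3:**
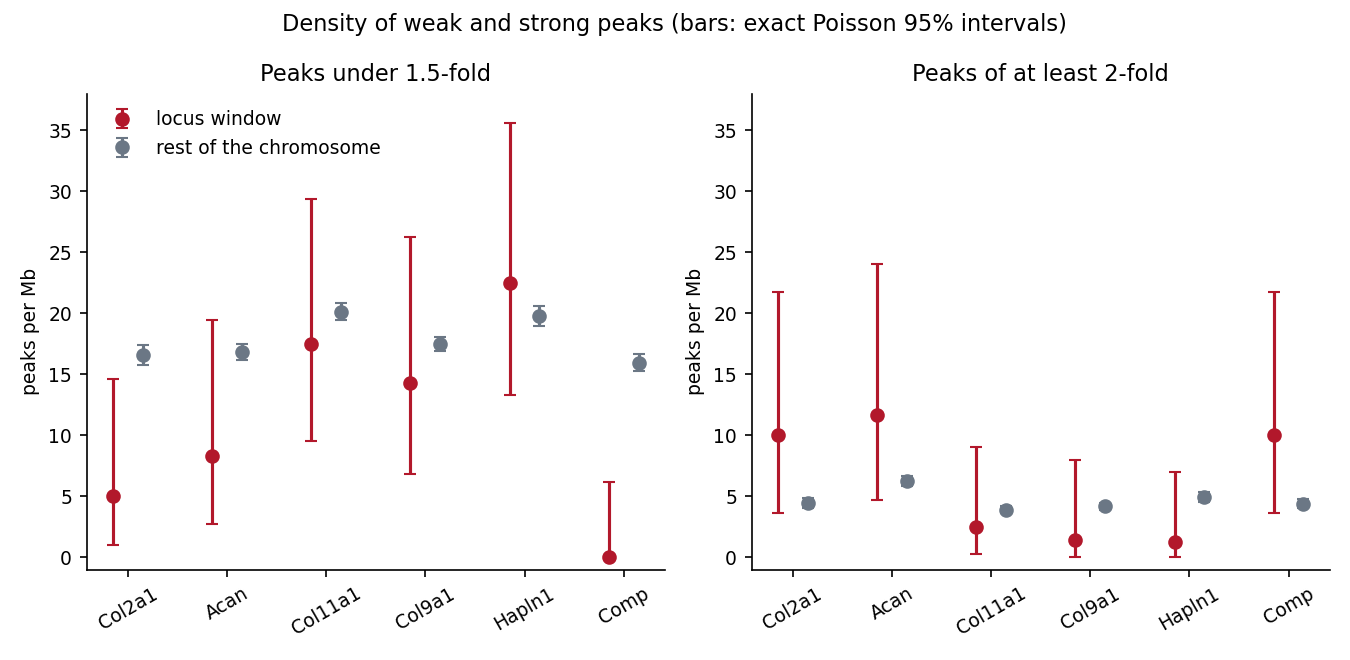
Points are peaks per Mb in each locus window (red) and on the rest of its chromosome (grey), for peaks under 1.5-fold on the left and of at least 2-fold on the right, with exact Poisson 95% intervals as bars. The Comp and Col2a1 windows lie below their chromosomes for weak peaks, and all 6 windows have intervals that reach their chromosome for strong peaks.

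Put in order by peak density, the loci ran Comp, Col9a1, Col2a1, Hapln1, Acan and Col11a1, and each neighbouring pair in that order had overlapping intervals. The widest contrast, Comp at 11.7 per Mb (4.69 to 24.0) and Col11a1 at 32.5 per Mb (21.2 to 47.6), also overlapped. By median fold the order was Comp, Col2a1, Acan, Col11a1, Hapln1 and Col9a1. The interval of a median, read from the ranks of its peaks, was 1.67 to 3.27 for Comp, which for 7 peaks is their whole range. It was 1.15 to 2.50 for Col2a1, 1.46 to 2.36 for Acan, 1.28 to 1.72 for Col11a1, 1.11 to 1.45 for Hapln1 and 1.2 to 1.59 for Col9a1. Comp thus stood apart from Hapln1 and Col9a1, and Acan from Hapln1 alone, while neighbours in the order overlapped. Against their own chromosomes, the interval of Comp lay above and that of Hapln1 just below the median of the rest, and the other 4 included it. This reading changed with the peaks and the window used. With the Comp window widened to 1200 kb, which holds 22 peaks, its median was 0.33 above that of the rest of the chromosome (-0.01 to 1.09), in place of 1.48 above (0.17 to 1.77). For Hapln1 the interval of the difference included 0 among peaks with an FDR of at most 1% (-0.20 to 0.22), with peaks less than 1 kb apart merged (-0.39 to 0.03), in the middle 400 kb of the window (-0.59 to 0.34) and among its 2 peaks of at least 20 tags (-0.15 to 0.11). At Col2a1 and Acan the interval left 0 in the other direction. Among peaks with an FDR of at most 1% the median was 0.44 above that of the rest at Col2a1 (0.25 to 0.91) and 0.20 above at Acan (0.14 to 0.73). With windows of 1200 kb it was 0.29 above at Col2a1 (0.03 to 0.46) and 0.30 above at Acan (0.11 to 0.48).

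How unusual a window was along its chromosome is shown by other windows of the same width. On chromosome 8, 10 of 212 such windows held 7 peaks or fewer, the median being 19. None of the 205 windows with at least 5 peaks had a median fold as high as that of Comp, and the highest was 2.56. At Col2a1, 31 of 165 windows held as few peaks as its 14, and 8 of 165 had a median fold as high. At Acan, 121 of 247 windows held as few peaks as its 19, and 23 of the 235 with at least 5 peaks had a median fold as high. For Col11a1 133 of 193, for Col9a1 245 of 273 and for Hapln1 121 of 144 windows had a median fold as high or higher. Neighbouring windows share 1 library and are not independent, so these counts describe the chromosomes and give no p-value.

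Windows with fewer peaks tended to have a higher median fold on each of the 6 chromosomes. Spearman's rho between the number of peaks and the median fold was -0.56 on chromosome 15 (165 windows), -0.44 on chromosome 7 (235), -0.37 on chromosome 8 (205), -0.37 on chromosome 1 (273), -0.37 on chromosome 13 (144) and -0.29 on chromosome 3 (193). These are descriptions over windows of 1 library with 1 fold column. Comp had few peaks and a high median fold. The 3 other windows of chromosome 8 with at least 5 but no more than 7 peaks had median folds of 1.31 to 2.56. The middle value was 1.32, and none was as high as that of Comp. Col2a1, with 14 peaks against a median of 19 in its windows, and Col9a1, with 16 against 23, had densities within counting error of their chromosomes. Their density ratios of 0.715 and 0.676 became 1.05 (0.753 to 1.42) and 1.08 (0.804 to 1.42) with the windows widened to 1200 and 1400 kb. Among the windows with at least 5 peaks but no more than Col9a1's 16, 41 of 43 had a median fold as high as its own. For Col2a1, with the limit at its 14 peaks, 6 of 31 did.

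**Figure D4:**
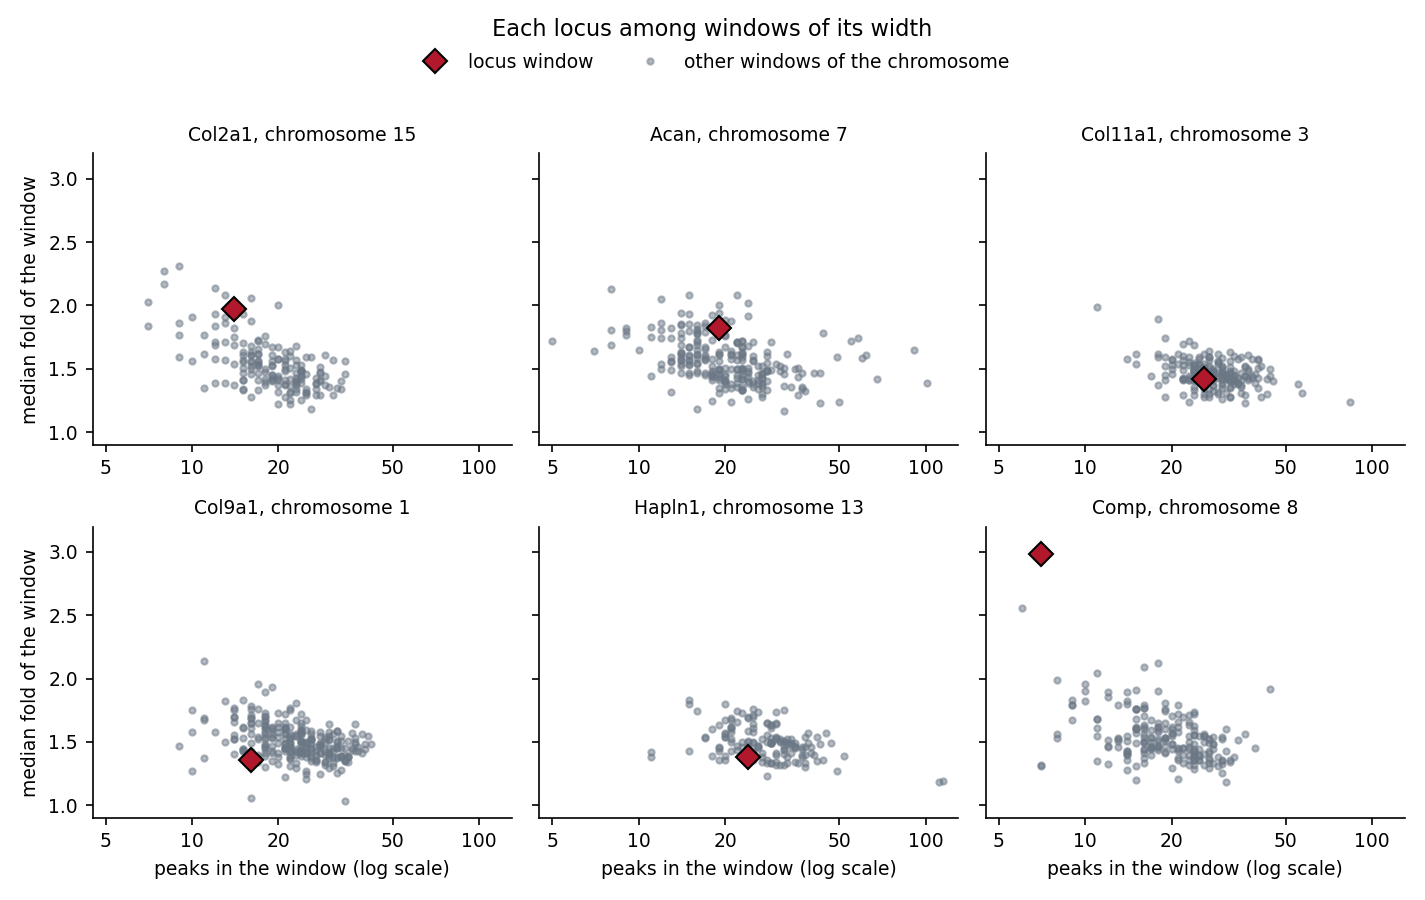
Each grey point is a window of the same width as the locus on the same chromosome, with its number of peaks on a log axis and its median fold; the red diamond is the locus. The diamond of Comp, at 7 peaks and 2.98, lies above all 205 other windows, and that of Col9a1, at 16 peaks and 1.36, lies low among windows of its size.

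The loci also differ in how many genes they hold. In the RefSeq gene table of GRCm38.p6, a later assembly whose positions were not converted to mm9, a stretch as wide as the window and centred on the gene held 33 protein-coding genes for Comp, 16 for Col2a1, 9 for Acan, 5 for Col9a1, 3 for Hapln1 and 1 for Col11a1. The 3 loci with the most genes were those with the highest median fold. Over the 6 loci Spearman's rho of gene density was 0.77 with median fold and -0.71 with peak density, a description of 6 points with no test. The part of gene density in the result was not tested. Neighbours in that table include Gdf1, a TGF-β family ligand, beside Comp; Vdr, the vitamin D receptor, beside Col2a1; Hapln3, a link protein relative, beside Acan; Vcan, the proteoglycan versican, beside Hapln1; and Col19a1, another collagen, beside Col9a1. A peak of a window can therefore belong to a gene other than the one the window is named for.

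The mm9 sequence under the peaks was not used here. What can be shown is the DNA just before the start of the genes, from the RefSeq promoter table of GRCm38.p6, which held 5 entries for 4 of the genes, Col9a1 (2 starts), Col11a1, Acan and Hapln1. These stretches are not tied to any peak, since the assemblies differ. The 250 bases before each start were searched on both strands. The letters searched were CAGAC, a core of the Smad binding element, the palindrome GTCTAGAC, which is the full form of that element and holds the first motif on neither strand, the GC-rich Smad motif GGCGCC, the Runx motif TGTGGT and the Sox motif ACAATGG. The Smad core was in 3 of the 5 stretches and in 42.2% of all 32851 in the table. The Runx letters were in 1 of the 5, that of Hapln1, and in 14.0% of all. The palindrome, the GC-rich motif and the Sox letters were in none of the 5, and in 0.167%, 9.59% and 3.02% of all. The 3 stretches with a match are shown because they hold these letters, in capitals on the plus strand. The Smad core lies on the plus strand before the Col9a1 start and on the minus strand before the others. They are chr1:24194953-24195202 for the second Col9a1 start, chr3:114030290-114030539 for Col11a1 and chr13:89540386-89540635 for Hapln1, all GRCm38.p6 and plus strand.
Col9a1: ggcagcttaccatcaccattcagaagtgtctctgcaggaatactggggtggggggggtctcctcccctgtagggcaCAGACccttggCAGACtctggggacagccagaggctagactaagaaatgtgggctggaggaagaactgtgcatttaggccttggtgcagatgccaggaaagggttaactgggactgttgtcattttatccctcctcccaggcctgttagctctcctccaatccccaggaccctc
Col11a1: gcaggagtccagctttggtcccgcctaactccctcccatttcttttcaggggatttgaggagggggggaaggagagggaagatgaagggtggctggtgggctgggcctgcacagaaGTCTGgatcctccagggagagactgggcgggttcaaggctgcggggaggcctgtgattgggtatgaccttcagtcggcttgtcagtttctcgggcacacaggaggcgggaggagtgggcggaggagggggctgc
Hapln1: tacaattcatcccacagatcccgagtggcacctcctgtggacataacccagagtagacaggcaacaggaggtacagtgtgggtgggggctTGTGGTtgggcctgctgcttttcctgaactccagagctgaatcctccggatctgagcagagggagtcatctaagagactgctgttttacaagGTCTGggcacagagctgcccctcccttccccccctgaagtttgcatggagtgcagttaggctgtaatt
The matches are letters, not measured sites. Acan, with the strongest peak of the 6 loci, had no match in its 250 bases, of which 74.4% were G or C.

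The scale of the deposited fold bears on every comparison above. Under a Poisson model, the tags of a peak and its deposited p-value fix the lowest ratio of tags to expected tags that could have given that p-value. This ratio was above the deposited fold for all 106 peaks of the loci and for 90975 of 90978 peaks of the list, those at the highest p score being left out. It was above the fold read as log2 for all 106 peaks as well. The fold is therefore not the linear or log2 form of the ratio behind the p-value under that model, and a fold of 2 names a place in the column rather than a doubling. In order the ratio gave the same contrast. Its median was 29.3 at Comp, 12.6 at Col2a1 and 10.9 at Acan, against 7.97, 7.81 and 8.27 on the rest of chromosomes 8, 15 and 7. At Col11a1, Col9a1 and Hapln1 it was 7.23, 6.16 and 6.16, against 7.32, 7.69 and 7.51 on the rest of chromosomes 3, 1 and 13. Over the 106 peaks Spearman's rho of fold and ratio was 0.89, but both come from 1 run of the caller and are not independent measures.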

How the data were processed

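One list of Smad4 peaks in mm9 was analysed. Per the submitters' processing notes, the tools were BWA (an aligner) and the peak callers SICER and MACS, with no settings, and versions are not given in the sources used here. Tag counts per peak were deposited by the authors as whole numbers. The p score, the fold ratio and the FDR in percent are as deposited by the authors, and no background or transformation of the fold is stated per the file headers. The members and comparisons were chosen with earlier results of these data known. Rest-of-chromosome densities use the span from first to last peak without the window. Windows of the same width tile each chromosome from the locus outwards, and partial ones were left out. Intervals are exact Poisson for counts, Clopper-Pearson for shares and binomial rank intervals for medians, at 95%. Where peaks are too few for that, the rank interval is their range and falls short of 95%. Peaks were named by rule: in each window the 3 highest folds, the highest p score, the most tags, the longest, the nearest to the centre, and runs. The number of peaks of 1 kb or longer, the weak peaks, the gene numbers and the rank of median folds among windows were added after seeing the data. Alternatives changed the peaks kept, the assignment, the window width, merging, background and fold limit. Computation was in Python 3.11.15 with scipy 1.17.1, numpy 2.4.6 and pandas 2.3.3, figures were drawn with matplotlib 3.10.9, and the procedures were tested on simulated data.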

Additional observations from a re-analysis of the deposited data

How the results depend on the processing

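Of 224 values of the 6 loci under the alternatives, 203 stayed within the counting interval of the value reported and 21 moved beyond it. None that stood clear of its chromosome changed sign. The 203 include values that repeat the main setting and add no check. Assigning peaks by any overlap or by summit kept the same peaks in all 6 windows. Leaving out bins of 1 Mb with at least 100 peaks changed no value at Col2a1, Col11a1, Col9a1 and Comp. Densities below are ratios of window to rest of the chromosome, and other values are differences, window minus rest. A limit of at least 20 tags left 0 to 8 peaks a window and moved the most values: density to 0.240 at Col2a1, 0.366 at Col9a1 and 0.268 at Hapln1; median fold to 1.38 at Col2a1, 0.99 at Acan and 0.32 at Col9a1; the share of at least 2-fold to 74.2 percentage points at Col2a1, -11.4 at Col11a1, 26.2 at Col9a1 and -22.0 at Hapln1; and median tags to 10.0 at Col2a1, 6.50 at Col11a1, -2.00 at Col9a1 and -2.00 at Hapln1. It left no Comp peak. The part of the smaller number of peaks in these changes was not tested. In a window reduced to its middle 300 to 400 kb, median tags at Col11a1 were -1 and the share at Col9a1 was -12.4 points. Widening the Col11a1 window to 1600 kb gave 78 peaks and turned its density ratio to 1.34 (1.06 to 1.68). A 1200 kb window gave 0.678 at Acan (0.454 to 0.974), now clear of 1. Also clear of 1 were the density ratios of Col9a1 at an FDR of at most 1%, 0.491 (0.224 to 0.931), and of Hapln1 with at least 20 tags, 0.268 (0.0325 to 0.968). Merging gave median tags of -2.00 at Col9a1 and -2.00 at Comp, and an FDR of at most 1% gave -2.00 at Comp. With a limit of 1.5-fold the share at Hapln1 was -21.7 points. For these the cause was not tested. Comp kept fewer peaks per Mb than its chromosome under each alternative that left it a peak, with ratios of 0.313 to 0.572, and its share of at least 2-fold was 31.8 to 72.0 points above at that limit, but in the middle 300 kb, with 3 peaks, the interval of its 52.9 points included 0 (-4.36 to 85.4), as did that of Col2a1, at 23.8 points (-5.20 to 61.8). At Col2a1 the interval also included 0 with at least 20 tags and with limits of 1.5-fold (-0.107 to 46.0) and 3-fold (-0.648 to 33.0). The rho between peak number and median fold stayed negative with at least 10 peaks a window, at -0.49 to -0.29, an alternative chosen after seeing the data. No paired analysis was possible because there was a single library of each kind. Depth is unknown, and tags limit each peak.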
